A study of Solanum lycopersicum with 10 samples.

Results

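Transcripts that were lower in leaves of wounded tomato plants, both with an antisense Rboh gene and in wild type, are described here as a set of 73 cDNA clones out of 11153 that were measured. The members were chosen by their values: after the median of the tested rows was subtracted on every array, a member's mean log2 ratio had to be at least 0.5 lower in wounded than in unwounded plants in each genotype. A difference of -0.5 on the log2 scale is a level 1.41-fold lower. Because these wounding differences chose the members, they are given as a description with no test.

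Leaf RNA from 10 samples was compared on two-colour cDNA arrays with a pool of all the samples. The mutant systemic wounded group has 3 arrays and the mutant control group has 2. The wild type systemic wounded group has 2 arrays and the wild type control group has 3. Systemic wounded leaves came from wounded plants and control leaves from unwounded plants. The mutant expresses an Rboh gene in antisense. The sources used here do not give its promoter, the number of lines, the age of the plants or the time after wounding. Whether replicates are separate plants is not stated either, so the p-values cover the spread among these arrays, which may be technical. In bulk leaf RNA, fewer cells of a type and less RNA per cell cannot be told apart.

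Wounding a tomato leaf sets off signals that travel through the plant, among them the peptide systemin and the hormone jasmonate, and leaves that were not injured respond. That systemic response is best known for the proteinase inhibitors that it induces against feeding insects. Rboh genes encode NADPH oxidases of the plasma membrane, which make reactive oxygen species outside the cell that also act as signals.

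The files do not pair clone identifiers with genes. Of the 73 members, 0 matched an identifier in the RefSeq gene table (assembly SLM_r2.1), so members are called by their clone names, no role is given to them, and their sequences are not analysed here. The labelled leaf tissue could not be checked against markers, since a ratio to a pool gives no level within a sample. Of the rows tested, 2 carry a gene name, and neither is a member. The row Chlorophyla/bbindingprotein, whose name is that of a protein that gathers light for photosynthesis, was past the limit in wild type at -0.85 and short of it in the mutant at -0.38. The row Carbonic_anhydrase, whose name is that of an enzyme acting on carbon dioxide in chloroplasts, had differences of -0.04 in the mutant and -0.16 in wild type.

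The labels name a sample channel and a pool channel but no dye, so which way the ratio runs is open. Over all clones, wild type control replicate 3 correlated below 0 with all 5 mutant arrays, at -0.33, -0.22 and -0.43 with the wounded ones and at -0.04 and -0.12 with the controls. With every other wild type array it correlated above 0, at 0.33 and 0.20 for controls and 0.14 and 0.27 for wounded plants. Wounded wild type replicate 2 was also below 0 with every mutant array except wounded replicate 1, at 0.02. Among pairs without wild type control replicate 3, the lowest value was -0.29. It was seen for wounded mutant replicate 2 with wild type control replicate 1 and for mutant control replicate 3 with wounded wild type replicate 2. Values below 0 also occurred within a genotype. Control and wounded replicate 2 correlated at -0.12 in the mutant and at -0.10 in wild type. Correlations within groups ran from 0.19 to 0.43 over 8 pairs, and those between groups from -0.43 to 0.45 over 37 pairs. The highest of all, 0.45, joined mutant control replicate 2 and wild type control replicate 1, so arrays were not always most like their own group. Directions are for sample over pool. With the sign turned, the 73 clones would be higher in wounded leaves, and 239 other clones would be the ones lower in both genotypes.

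Few clones were lower in both genotypes. A wounding difference of -0.5 or less was seen for 2.63% of all clones in the mutant, for 7.78% in wild type and for 0.655% in both. A difference of 0.5 or more in both genotypes was seen for 239 clones, 2.14%. The gap widened with size: 2 clones were lower by 1 or more in both genotypes, and 119 were higher by 1 or more in both.

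The members' median difference was -0.65 in the mutant, with a range from -1.17 to -0.50, and -0.75 in wild type, with a range from -1.86 to -0.50. Over all clones the medians were -0.013 in the mutant and -0.0018 in wild type. The larger of a member's 2 differences lay above -0.6 for 38 of the 73. Just inside the limit were cLER1H17, at -0.50 in the mutant and -1.27 in wild type, and cLED34P16, at -0.60 in the mutant and -0.50 in wild type. Just outside it were cLED5L14, at -0.4993 in the mutant and -0.55 in wild type, and cLED24I17, at -0.4989 in the mutant and -0.76 in wild type.

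**Figure D1:**
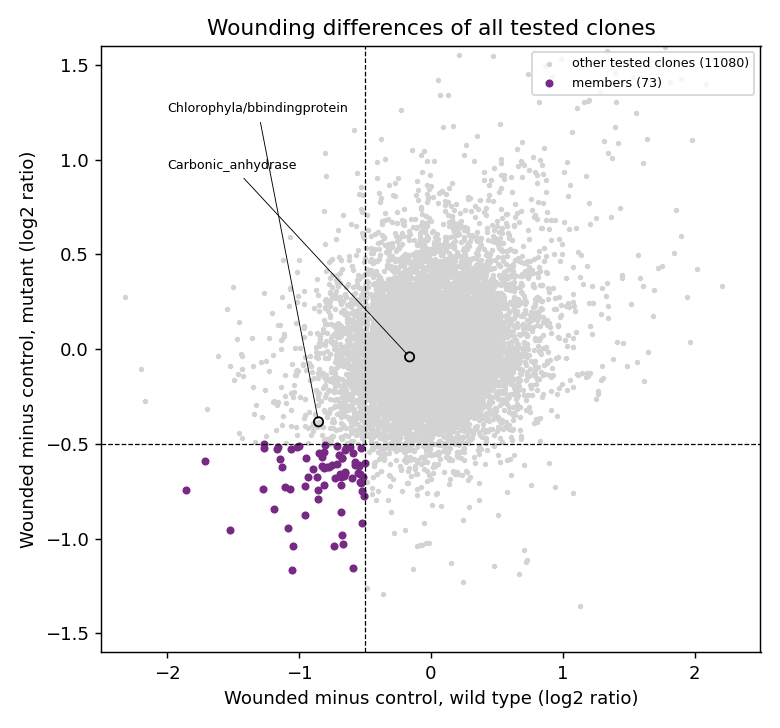
Wounded minus control difference (log2 ratio) of each tested clone in wild type (x axis) and in the mutant (y axis), with the limits of -0.5 as dashed lines, the 73 members in purple and the 2 rows with a gene name circled. Of the members, 15 lie below -0.75 in the mutant and 36 in wild type, the lowest are at -1.17 in the mutant and -1.86 in wild type, and 105 clones, none of them a member, lie outside the plotted range.

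No clone passed a test for being lower in wounded leaves. By limma with Benjamini-Hochberg adjustment, 0 of all clones (0%) were called lower in the mutant, in wild type or over both genotypes at an adjusted p under 0.05. At an unadjusted p under 0.05, 13 of the 73 were lower in the mutant, beside 0.61% of all clones, and 30 in wild type, beside 2.85%. Over both genotypes the count was 54, beside 2.11%. Turning the sign makes all of these higher. The clones passing as lower would then number 0 in the mutant, 30 in wild type (0.269%) and 86 over both genotypes (0.771%), and none of them is a member. The rule used these contrasts, so nothing is read from these counts.

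The members' level varied between the arrays of a group. On the mutant systemic wounded arrays the members' medians were -0.18, -0.50 and -0.51, against 0.32 and 0.34 on the mutant control arrays. On the wild type systemic wounded arrays they were -0.91 and -0.35, against 0.06, -0.02 and 0.72 on the wild type control arrays. In both genotypes the wounded medians were below the control medians. In wild type, replicate 1 of the wounded plants was the lowest of all arrays and replicate 3 of the controls the highest.

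Of the members, 39 had their highest value on wild type control replicate 3, as did 19.6% of all clones, and 30 had their lowest on wild type systemic wounded replicate 1, as did 7.46%. Wild type control replicate 3 also had the widest spread of all clones, with a standard deviation of 0.64, against 0.36 to 0.54 on the other 9 arrays.

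**Figure D2:**
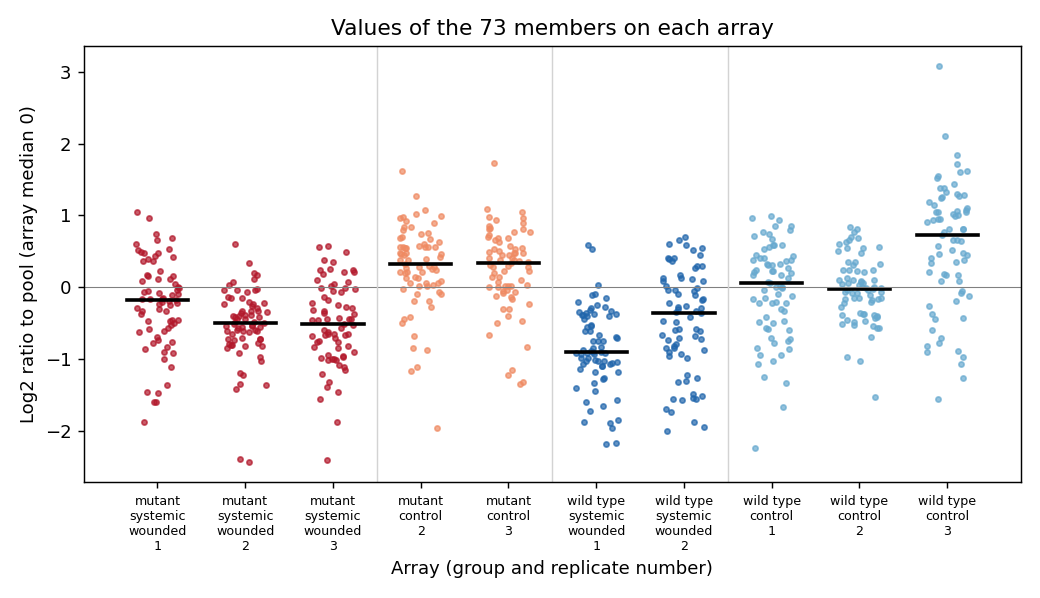
Log2 ratio to the pool of the 73 members (points) on each of the 10 arrays, with black bars at the medians. Mutant systemic wounded arrays sit at medians from -0.51 to -0.18 and mutant controls at 0.32 and 0.34, while in wild type the lowest median, -0.91, is on wounded replicate 1 and the highest, 0.72, on control replicate 3.

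The members also varied widely between replicates. Their median within-group standard deviation was 0.54, against 0.33 over all clones, and 65 of the 73 were above that median. In 20 members every wounded array lay below every unwounded array within both genotypes, as in 1.15% of all clones. In 7 members all 5 wounded arrays lay below all 5 unwounded arrays whatever the genotype, as in 0.35% of all clones. The rule used these arrays, so these counts too are a description.

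Membership changed with the arrays kept. With each array left out in turn, 5 of the 73 clones met the rule every time, 8 met it 9 times of 10 and 44 met it at most 7 times. Between 41 and 66 members were kept. The fewest, 41, were kept when wild type systemic wounded replicate 1 was left out, and 44 were kept when wild type control replicate 3 was. With mutant control replicate 2 left out, 46 members and 92 other clones met the rule, 138 in all. Leaving out mutant control replicate 3 gave 126 in all, and leaving out replicate 1 of the wounded mutant gave 136. The lowest total, 55, came when wild type control replicate 3 was dropped.

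**Figure D3:**
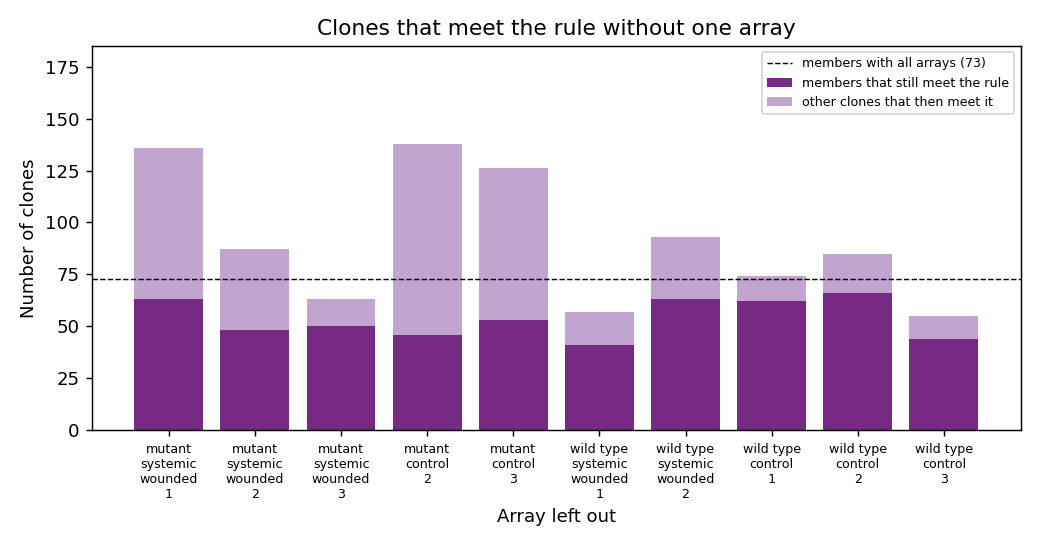
Number of clones that met the rule when the array on the x axis was left out, split into members (dark) and other clones (light), with the 73 members as a dashed line. Between 41 and 66 of the members remain, and the total ranges from 55 to 138.

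The 5 clones that met the rule with every array left out were cLED5M17, cLET44F24, EST247884, cLEF42I9 and cLEF49D11, the last named after its values were seen. Clone cLED5M17 had values of -0.69, -0.71 and -1.55 on the mutant systemic wounded arrays, against 0.14 and 0.23 on the mutant controls. In wild type it had -0.83 and -0.06 in wounded plants, against 0.44, 0.10 and 1.29 in controls. All of its wounded arrays were below all of its unwounded arrays, and its differences were -1.17 in the mutant and -1.06 in wild type.

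Clone EST247884 had -0.34, -0.79 and -0.32 in the wounded mutant, against 0.30 and 0.81 in the unwounded mutant. In wild type it had -0.67 and -1.32 in wounded plants, against -0.42, 0.22 and 0.34 in controls. The groups did not overlap within a genotype, and the differences were nearly equal, at -1.04 in each. With cLED5M17 it was 1 of the 2 clones lower by 1 or more in both genotypes.

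Clone cLET44F24 had -0.91, -0.84 and -0.01 in the wounded mutant, against 0.03 and 0.70 in the unwounded mutant, a difference of -0.95. In wild type it had -1.45 and -0.79 in wounded plants, against -0.48, -0.15 and 1.84 in controls, a difference of -1.52. The groups did not overlap within a genotype, but 1 wild type control stood far above the other 2.

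By value, the wounding difference was further below 0 in wild type for 51 of the 73, and no member passed the test of a difference between the genotypes. Among all clones too, -0.5 or less was reached more often in wild type (7.78%) than in the mutant (2.63%). Whether the count of 51 is particular to the members was not tested. The difference of differences, mutant minus wild type, had a median of 0.11 and a range from -0.57 to 1.13, against a median of -0.0076 over all clones. By limma's test of the interaction, 0 members were called (0% of all clones), and at an unadjusted p under 0.05 there were 0 members and 266 clones in all (2.39%). The rule holds both differences below -0.5 and so bounds this quantity.

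The widest gaps rested on scattered arrays. Clone cLER1M20, lower by 0.59 in the mutant and 1.72 in wild type, had -1.88, -0.81 and -1.02 in the wounded mutant, against -1.97 and 0.68 in the unwounded mutant. In wild type it had -1.40 and -1.73 in wounded plants, against -2.25, -0.39 and 3.09 in controls. Its wounded and unwounded arrays overlapped in both genotypes.

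Clone cLED6N15 had -0.84, -1.35 and -2.41 in the wounded mutant, against -0.42 and -1.15 in the unwounded mutant, a difference of -0.75. In wild type it had -1.01 and -0.88 in wounded plants, against -0.12, 0.76 and 2.10 in controls, a difference of -1.86. In the other direction, cLET11L8 was lower by 1.15 in the mutant and 0.59 in wild type, and cLET6A10 by 0.92 in the mutant and 0.53 in wild type.

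A group of members moved together from array to array. After each group's mean was taken off, 39 of the 2628 pairs of members (1.48%) correlated above 0.95 over the 10 arrays, beside 0.118% of all pairs of tested clones. Linking such pairs joined 12 members into 1 group, within which the lowest correlation was 0.84, and 4 others into 2 pairs. Clones are not independent of each other, and all pairs share the arrays and the pool, so these are descriptions.

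The 12 linked clones were cLEC11G9, cLEC13P8, cLEC6L13, cLED11H6, cLED17D12, cLED17G20, cLED24G3, cLED4J5, cLED7B14, cLEM5H23, cLER17I18 and cLET1O3. Their medians were -0.16, -0.58 and -0.97 on the mutant systemic wounded arrays, against 0.34 and -0.06 on the mutant controls. They were -1.01 and 0.43 on the wild type systemic wounded arrays, against 0.25, -0.04 and 1.06 on the wild type controls. By median, wounded wild type replicate 1 was thus below all 3 controls and wounded replicate 2 above 2 of them. On that replicate 2 the 12 clones ranged from -0.47 (cLEM5H23) to 0.70. The other 61 members had medians of -0.83 and -0.60 on those wounded arrays.

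The place of this group in the set depended on single arrays. Its median wounding difference in wild type was -0.66 with all arrays. It was 0.02 when replicate 1 of wounded wild type was left out, and -0.30 when replicate 3 of the wild type controls was. Without that wounded array 0 of the 12 met the rule, and without that control 3 did. In the mutant the median was -0.66, and -0.45 without mutant control replicate 2, where 5 of the 12 met it. It was -0.46 when replicate 3 of the wounded mutant was dropped, where 4 of the 12 met it.

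The same profile ran beyond the limit of the rule. Over all tested clones, 37 (0.332%) had deviations that correlated above 0.95 with the mean of the 12, and 11 of these were members. Of the 26 that were not members, 22 were lower by mean in wounded leaves of both genotypes, beside 28.7% of all clones. Their median differences were -0.32 in the mutant and -0.34 in wild type. Likeness to members was what chose them, on the same arrays, so these values are no independent support. Identifiers of 21 of the 37 begin with cLED (56.8%, beside 22.5% of all tested clones). What the prefix stands for is not given in the sources used here.

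**Figure D4:**
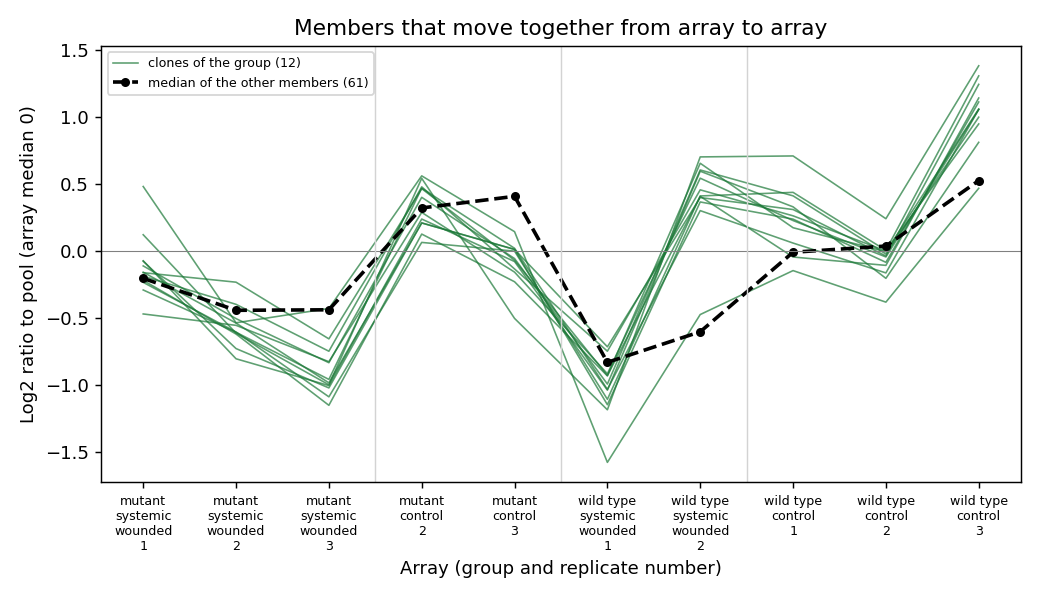
Log2 ratio to the pool on each of the 10 arrays for the 12 linked members (green lines) and the median of the other 61 members (dashed). The 12 lie at a median of 0.43 on wild type systemic wounded replicate 2, with a range from -0.47 to 0.70, where the other members have a median of -0.60.

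Another pair of linked clones, cLEF41I23 and cLET45G24, differed in profile from the 12. Their median values were -0.48 and -1.56 on the wild type systemic wounded arrays, so that here replicate 2 was the lower. On the mutant systemic wounded arrays they were -0.63, -0.39 and -0.09. Against these stood -0.02 and 0.86 on the mutant controls and -0.58, 0.61 and 0.31 on the wild type controls.

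By name, the members were spread over 11 of the 30 identifier types tested. Of the 73, 17 begin with cLED (23.3%, beside 22.5% of all tested clones), and 10 each with cLEC (13.7%, beside 19.8%), cLET (13.7%, beside 8.72%) and cLEF (13.7%, beside 8.57%). Among the 239 clones higher by 0.5 or more in both genotypes, 43.5% begin with cLED. These shares were not tested.

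The level of some members differed between the mutant and the wild type arrays. This contrast was not used by the rule, but it uses the same arrays. With these array numbers, the error of the genotype difference over both treatments correlates at -0.14 with that of each wounding difference, so that choosing low wounding differences draws it upward. The mean of all 5 mutant arrays minus that of all 5 wild type arrays has an error correlation of 0 with both, and it is given as a second value. Its treatments are not balanced, so it contains a small part of both wounding differences. For members, chosen with both differences below 0, it is therefore lower than the first value by construction.

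Over both treatments, 11 of the 73 members passed for genotype by limma (15.1%, beside 4.47% of all clones): 8 were higher in the mutant, beside 3.08% of all clones, and 3 were lower, beside 1.4%. Turning the sign makes that 3 higher and 8 lower. Whether some of these clones come from the same gene is not known, so they may stand for fewer genes. In the comparison of 5 arrays with 5, 10 passed, beside 5.16% of all clones. The call lost there was that of cLEF46D2, with a difference of 0.76 and an adjusted p of 0.0485 over both treatments by limma, and an adjusted p of 0.0799 in the second comparison.

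The median genotype difference over the 73 was 0.10 over both treatments and -0.03 for 5 arrays against 5, beside -0.01 and -0.0036 over all clones. The second value is the lower one for members by construction, so nothing is read from the step between them. By mean, 37 members were higher in the mutant in both treatments, beside 35.4% of all clones, 26 were lower in both, beside 35.9%, and 10 were mixed. Of the 62 members that did not pass, 29 were higher in both (46.8%) and 23 lower in both (37.1%). The error of each treatment's genotype difference correlates at 0.4 with 1 wounding difference and at -0.6 with the other. Choosing low wounding differences thus draws both genotype differences upward on balance, so nothing is read from these counts.

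Clone cLEF42I9 had the largest difference among the higher members. It had 0.49, -0.42 and 0.35 in the wounded mutant, against -1.89 and -1.88 in wounded wild type. Unwounded, it had 1.07 and 1.09 in the mutant, against -0.95, -0.38 and -1.07 in wild type. The genotypes were apart within each treatment, 1.95 apart over both (SE 0.22, limma adjusted p = 0.000879), while the difference by wounding was -0.95 in the mutant and -1.08 in wild type.

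EST273727 had 0.66, -0.45 and 0.56 in the wounded mutant, against -1.97 and -1.70 in wounded wild type. Unwounded, it had 0.93 and 1.04 in the mutant, against -0.75, -0.54 and -0.88 in wild type. All 5 mutant arrays were above all 5 wild type arrays, 1.90 apart over both treatments (SE 0.23, limma adjusted p = 0.00117).

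Clone cLEC11D4 had 0.11, -0.15 and 0.38 in the wounded mutant, against -1.65 and -1.999 in wounded wild type. Unwounded, it had 0.61 and 0.86 in the mutant, against -1.26, -0.47 and -1.26 in wild type. Its genotypes did not overlap, and the log2 difference of 1.83 had an SE of 0.21 and a limma adjusted p of 0.000906. For cLEF16N12 the difference was 1.94, with an SE of 0.27 and a limma adjusted p of 0.00265, and 1 wounded mutant array, at -0.55, was below 1 wild type control, at -0.43.

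The other 4 higher members, cLEM6D20, cLEF49D11, cLET28A24 and cLEF46D2, had differences from 0.76 to 1.53. The call of cLEF49D11 was lost when mutant control replicate 3 or either wounded wild type array was left out, at limma adjusted p from 0.0571 to 0.0675. That of cLET28A24 was lost when either mutant control, wounded mutant replicate 1 or 3, or wounded wild type replicate 1 was left out, at limma adjusted p from 0.0597 to 0.122, and with a replicate block by title number, at 0.0613. That of cLEF46D2 was lost with any array but wild type control replicate 2 left out. In all 8, the mean of the wounded mutant stayed above that of unwounded wild type. Over the 10 arrays, the values of these 8 clones correlated pairwise from 0.65 to 0.99, with a median of 0.88 over 28 pairs. Genotype and wounding, on which they were chosen, are part of that likeness, and the deviations from group means correlated from -0.74 to 0.94.

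For the 3 lower members the genotypes stood the other way round. Clone cLEM1K4 had -1.46, -2.39 and -1.45 in the wounded mutant, against 0.53 and 0.17 in wounded wild type. Unwounded, it had -0.85 and -1.32 in the mutant, against 0.77, 0.84 and 1.63 in wild type. No array of one genotype reached the other, and the difference was -2.14 (SE 0.25, limma adjusted p = 0.00103).

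Clone cLET1J1 differed by -1.85 (SE 0.26, limma adjusted p = 0.00265) and cLES5C8 by -1.51 (SE 0.20, limma adjusted p = 0.00198), also with no overlap between the genotypes. In all 3, the mean of the unwounded mutant was below that of wounded wild type. Among all 73 members, 3 had every mutant array above every wild type array, beside 5.1% of all clones, and 3 had every mutant array below, beside 3.53%, shares close to those of 4.11% and 4.11% among the members.

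**Figure D5:**
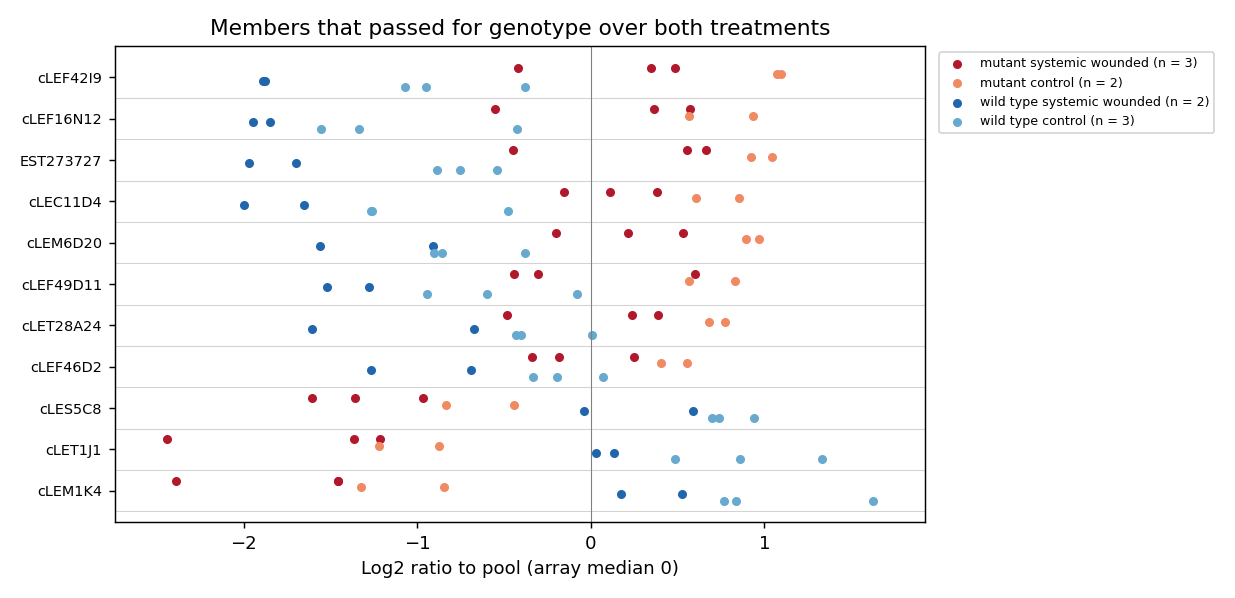
Log2 ratio to the pool on each array (x axis) of the 11 members that passed for genotype over both treatments, 1 row a clone, with points coloured by group. In the upper 8 rows the mutant mean lies to the right of the wild type mean within each treatment, in the lower 3 all mutant arrays lie to the left of all wild type arrays, and the differences run from -2.14 to 1.95.

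Within single treatments fewer members passed. In wounded plants, 6 members passed by limma (8.22%, beside 0.672% of all clones), 4 higher in the mutant (0.421% of all clones) and 2 lower (0.251%). In unwounded plants, 6 passed (8.22%, beside 0.493% of all clones), again 4 higher (0.359% of all clones) and 2 lower (0.134%), and 4 members passed in both. With the sign turned, each split is 2 higher and 4 lower. These contrasts share a group with each wounding difference, with error correlations of 0.4 and -0.6, and their calls depended on single arrays. In unwounded plants 0 passed when either mutant control or wild type control replicate 3 was left out, and 1 passed without wild type control replicate 1. In wounded plants 0 passed when replicate 1 or 3 of the mutant, or either wild type array, was left out. With the replicate number as a block, the counts were 0 in unwounded and 3 in wounded plants by the titles' numbers, and 1 and 6 by the descriptions' numbers.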

How the data were processed

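The deposited values are log2 ratios between each leaf sample and a pool, per the labels (sample in channel 2, pool in channel 1) and the values. Their direction is not stated, and sample over pool was assumed. The sources used here do not give the authors' image software, background correction or scaling. Of 11347 rows, with 0 missing values, 193 rows marked as failed and 1 blank were left out. Spot intensities were not used here, so brightness over background cannot be given; precision is limited by the number of arrays.

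Arrays were centred on their medians (deposited medians from -0.01 to 0.07). Contrasts of 4 group means were fitted to 10 arrays with limma 3.58.1 (lmFit, eBayes, R 4.3.3; 6 residual and 6.45 prior degrees of freedom), two-sided, with Benjamini-Hochberg adjustment over 11153 rows; the fit was tested on simulated data. Plots used matplotlib 3.10.9.

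The members, the lists and the rules were chosen with earlier results of these data known. Clones were named when lowest in both genotypes, most unequal between them, passed and largest for genotype, or next to the limit; linked groups and the 5 clones kept throughout were added after seeing the values. Replicate numbers are those of the titles; mutant controls carry 2 and 3 there and 1 and 2 in the descriptions. Deviations of arrays with the same title number correlated from -0.35 to 0.34 over 12 pairs, 3 above 0.1. Those sharing a description number correlated from -0.35 to 0.39 over 13 pairs, 5 above 0.1, so the numbers were not taken to pair the samples. Arrays of different groups still shared structure. Mutant control 2, wounded mutant 1, wild type control 1 and wounded wild type 2 correlated with each other from 0.11 to 0.39. Mutant control 3, wounded mutant 2, wild type control 2 and wounded wild type 1 did so from 0.07 to 0.35. Pairs across these sets were below 0, partly because deviations mirror each other in groups of 2 arrays. The main fit does not model this structure, and its source was not tested.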

Additional observations from a re-analysis of the deposited data

How the results depend on the processing

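The 73 members became 137 with quantile normalization, 86 with scale normalization, 91 without centring, 102 with group medians and 75 with failed and blank rows kept. The count was 2 at a limit of -1 and 20 with no overlap required within either genotype. It was 239 with the sign turned and 55 to 138 over left-out arrays. For genotype in unwounded plants, 6 members became 0 with trend and robust eBayes and 0 in a fit to those arrays alone; a replicate block gave 0 by title number and 1 by description number, and leaving out an array gave 0 to 7. In wounded plants, 6 became 1 with trend and robust eBayes, 3 with a replicate block by title number, and 0 to 8 over left-out arrays. In either treatment, the settings not listed kept the count within 1.5-fold. Over both treatments, 11 became 8 to 14 over all the settings run, and 8 of the 11 clones kept their calls in all 18 settings; cLEF49D11 lost its call in 3, cLET28A24 in 6 and cLEF46D2 in 14. Clones that did not pass for genotype changed sign in places. For cLET44F24, 0.25 became -0.14 with a replicate block by title number. For cLER1M20, -0.23 became 0.0030 (quantile normalization), 0.010 (scale normalization) and 0.22 (array weights), and ran from -0.89 to 0.51 over left-out arrays. For cLER1H17, -0.11 became 0.016 (scale normalization) and 0.082 (array weights), and ran from -0.39 to 0.19 over left-out arrays. For cLED24I17, -0.19 ran from -0.42 to 0.032 over left-out arrays. The causes were not tested. Of the 193 rows marked as failed, 2 met the rule (1.04%, beside 0.655% of tested clones). The 5 against 5 comparison of named clones was chosen after seeing the data.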
